A study of Mus musculus with 36 samples.

Results

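RNA that sedimented with single ribosomes in control embryonic mouse cortex was set against the total RNA of the same lysates, across all genes. The rule took the monosome and input libraries of the female controls (CtrlF) of both crosses, which gave 12 of the 36 libraries of the series, 6 monosome and 6 input. Each library came from a pool of the cortices of 2 embryos at E14.5, in mid-neurogenesis. The 3 LoF control pools carried Ddx3x lox/+ with no Cre, and the 3 T532M control pools carried Emx1-Cre/+ alone. The 2 sets of controls therefore differ in both the lox allele and Cre, and no control here lacks both. Emx1 drives Cre in the dividing cells that line the dorsal forebrain, so the Cre controls express the enzyme in most excitatory lineage cells of cortex. No label ties a pool to a litter or a day of dissection, so p-values measure the spread between these pools.

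During translation an mRNA is read by 1 or more ribosomes, and a sucrose gradient parts RNAs by the number they carry. The monosome peak holds mRNAs with 1 ribosome, which includes mRNAs at an early step of translation, mRNAs with short coding regions and mRNAs under low initiation. It can also hold other particles of like size, such as mitochondrial ribosomes and nuclear ribonucleoproteins, so presence there does not by itself show translation. RNAs lighter than the monosome, free or in small complexes, are in the input and sediment above that peak. Here 50 µL of cleared lysate was kept as input and the rest was run on a gradient of 15 to 50% sucrose that was taken off in 12 fractions. The fractions that made up the monosome sample are not named in the labels.

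The deposited counts are read pairs per gene over the whole gene span, introns included, so unspliced RNA adds to them and cannot be told apart from mRNA. The monosome libraries held 36999365 to 49049947 counted read pairs and the input libraries 38059093 to 46271375. Levels are CPM, the usual depth-scaled count (read pairs of a gene over the library's scaled total). A level is therefore a share of its library, and the total amount of RNA in a fraction was not measured. Levels of genes are for 6 monosome and 6 input libraries, mostly as the range, in places with the median or as the median alone. Some genes are given by their fold change only. Polysome levels and fold changes, where given, come from a scaling and fit of the 18 control libraries. Polysome CPM are therefore not on exactly the same scale as the monosome and input CPM beside them. Fold changes are log2 of monosome over input from a paired edgeR quasi-likelihood fit, with positive values higher in the monosome. The defining markers of cortex were present in both fractions: Pax6, of radial glia, was at 159 to 201 CPM (median 169) in monosomes and 144 to 212 CPM (median 166) in input. Neurod6, of young excitatory neurons, was at 655 to 892 CPM (median 831) in monosomes and 954 to 1340 CPM (median 1138) in input.

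The broad make-up of the libraries differed between the fractions. Mitochondrially encoded mRNAs took 3.81 to 10.2% of read pairs in monosomes (mean 6.42 ± 2.26%) and 1.87 to 3.27% in input (mean 2.53 ± 0.457%; SD, n = 6 each). The share was higher in the monosome in 6 of 6 pools, and the groups did not overlap. Long non-coding RNAs took 2.57 ± 0.0647% of read pairs in monosomes and 1.08 ± 0.0405% in input, again with no overlap. Genes for cytosolic ribosomal proteins took less, 4.62 ± 0.476% in monosomes and 6.02 ± 0.279% in input, lower in 6 of 6 pools. Mitochondrial ribosomal and transfer RNAs went the other way from mitochondrial mRNAs, at 0.0181 ± 0.00532% in monosomes and 0.101 ± 0.016% in input. Each of these differences had p = 0.03125 in the exact two-sided sign-flip permutation test over 6 pools, the smallest that test can give, and an adjusted p of 0.04688 over the 9 classes tested. Pseudogenes passed as well, at 0.325 ± 0.0153% in monosomes and 0.284 ± 0.0102% in input. Gene models over ribosomal RNA took 0.264 to 0.815% in monosomes and 0.566 to 4.66% in input, lower in 5 of 6 pools, and did not pass (exact permutation p = 0.0625, adjusted p = 0.08036). The remaining protein-coding genes took 85.5 ± 2.52% in monosomes and 87.5 ± 1.35% in input, and that difference did not pass either (exact permutation p = 0.25).

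**Figure D1:**
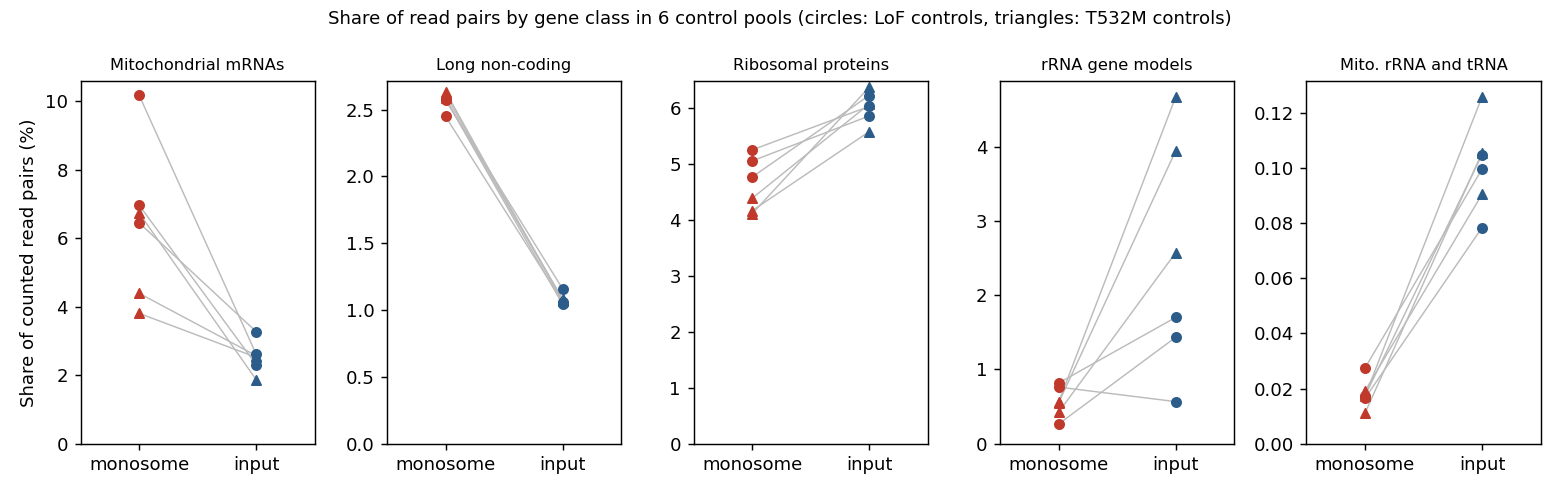
Share of counted read pairs (%) in 5 gene classes, monosome (red) and input (blue), with a grey line joining the 2 libraries of each pool. Mitochondrial mRNAs and long non-coding RNAs are higher in the monosome in 6 of 6 pools, and ribosomal protein genes and mitochondrial rRNA and tRNA are lower in 6 of 6.

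Most genes differed between the fractions. Of 55487 genes in the file, 18264 passed the low-count filter and were tested, and 14058 of them (77.0%) had an adjusted p under 0.05. Of the tested genes, 6866 (37.6%) were higher in the monosome and 7192 (39.4%) lower. These 2 shares are the background for the counts of every gene list below. At least a 2-fold difference as well was seen for 3853 genes that were higher (21.1%) and 3080 that were lower (16.9%). The median log2 fold change of all genes tested was -0.01, and 90% of genes lay between -1.70 and 2.74, so the upper tail was the longer.

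Both sets of controls gave calls of like number and direction. Within LoF controls 12357 genes passed (67.7%) and within T532M controls 12583 (68.9%), of which 19.9% and 20.8% of all genes tested were at least 2-fold higher. Of the 6933 genes called with at least a 2-fold difference, 6930 had the same sign in both crosses. That call rests on the mean of the 2 crosses, so this agreement was largely set by the choice of genes. The test of the difference between the crosses called 0 genes (0.0%), with 686 at an unadjusted p under 0.05 and a smallest adjusted p of 0.516 in edgeR. DESeq2 called 3. The 6 pools of conditional heterozygotes (cHet), which share no library with the controls, give a replicate of the measurement. Of the 6933 genes, 6742 were tested there and 6559 of those (97.3%) were called in the same direction, while 10 had the opposite sign. In the cHet fit by itself, 13373 of 18022 genes were called (74.2%), 37.5% higher and 36.7% lower. The difference between controls and cHet called 0 of 18833 genes (0.0%), with 697 at an unadjusted p under 0.05 in edgeR.

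The fold change followed the base composition of the transcript. Protein-coding genes whose transcript had under 40% GC had a median log2 fold change of 1.91 (647 genes), and those with 56% GC or more had -0.58 (2980 genes). The bins between them stepped down in order, at 0.91, 0.21, -0.20 and -0.46. Of the genes under 40% GC, 68.0% were called at least 2-fold higher in the monosome and 2.47% at least 2-fold lower. Of those with 56% GC or more, 77 were called at least 2-fold higher (2.58%) and 864 at least 2-fold lower. The medians of the 6 pools ranged from 1.30 to 2.51 in the lowest bin and from -0.78 to -0.40 in the highest, so all pools shared the direction. Across 14364 genes the Spearman correlation with GC content was -0.45, as a description of genes that share the same libraries.

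The same slope was present in polysome over input and nearly absent between the ribosome fractions. Polysome over input in the same controls, which shares the input libraries with this comparison, had a median of 1.52 under 40% GC and -0.63 at 56% or more. Polysome over monosome had medians between -0.43 and 0.26 in the 6 bins, with no steady order. The input was extracted from lysate and the fractions from sucrose, so the step of preparation and the association with ribosomes cannot be told apart. For this reason a fit with a smooth term for GC content and transcript length in each library was added after the slope was seen. Its values are given below as values after correction, beside each list or gene whose fold change they move by a factor over 1.5. That factor applies to the fold change itself and not to its log2, so a small log2 value given alone can still move by a large part. Emx1, at -0.81, was at -0.35 after correction, and the median of intermediate progenitor genes went from -0.48 to -0.09. It called 6552 genes higher (35.9%) and 7418 lower (40.7%), with at least a 2-fold difference for 2917 and 2931 (16.1%).

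Protein length had a smaller relation to the monosome share than base composition did. Median log2 fold changes were 0.11 for proteins under 100 residues, -0.33 from 100 to under 200, -0.37 from 200 to under 400, -0.12 from 400 to under 800, 0.24 from 800 to under 1600 and 0.79 for 1600 and more. The shortest proteins were thus level or slightly higher in the monosome, with pool medians from -0.12 to 0.28. In polysome over input the same bins spanned -2.91 to 2.73 and stepped up in order. After correction the value for 1600 residues and more was 0.15. Genes were also grouped by both properties. Among genes with 40 to 44% GC the median was 0.25 for proteins under 100 residues (36 genes) and 3.19 for 1600 residues and more (82 genes). Among genes with 56% GC or more it was 0.05 (62 genes) and -0.29 (147 genes).

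Genes with 1 exon and genes with many exons differed. Exons were counted in 1 annotated transcript per gene, so other transcripts can still place introns in the counted span. The 425 protein-coding genes with 1 exon had a median of -0.66 (-0.56 after correction), and 2205 genes with 20 exons or more had 0.30 (0.04 after correction). Genes with 2 to 4, 5 to 9 and 10 to 19 exons had -0.19, -0.21 and -0.13, with no steady order. Grouped by gene span over transcript length, which rises with intron content, genes stepped up in order. Medians were -0.61 under 1.5, -0.37 from 1.5 to 5, -0.07 from 5 to 20 and 0.18 at 20 and more. After correction they were -0.51, -0.21, -0.12 and -0.01. The part of intron reads in this was not tested. The dependence on composition was present among the single-exon genes too: their median was 0.49 under 44% GC (48 genes), -0.57 at 44 to 52% (134 genes) and -0.83 at 52% or more (243 genes).

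**Figure D2:**
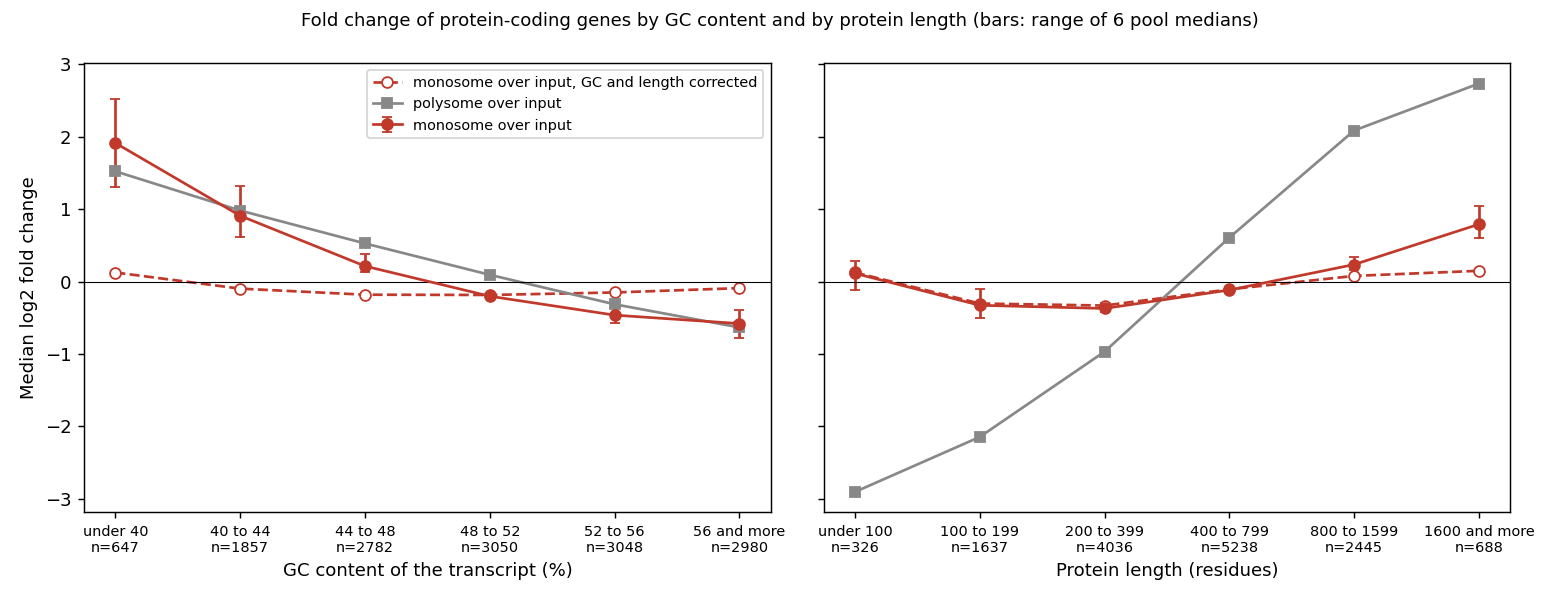
Median log2 fold change of protein-coding genes in bins of transcript GC content (left, %) and protein length (right, residues), for monosome over input (red, bars giving the range of 6 pool medians), the same after correction (open) and polysome over input (grey). Both fractions are higher than input for AT-rich transcripts, while protein length separates the polysome far more than the monosome.

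The genes named here are the largest rises and falls among called genes whose fractions did not overlap and whose 6 pools shared a sign, with a mean of at least 10 CPM in the higher fraction, so those properties were part of the choice. Of the 10 largest rises among genes with a RefSeq protein, 6 were zinc finger genes, and the other 4 were Mki67, Fut9, Kif20b and Kcna3. Mki67, which encodes the Ki-67 protein that coats mitotic chromosomes, was at 644 to 928 CPM (median 838) in monosomes and at 7.22 to 20.4 CPM (median 14) in input. The log2 fold change was 5.91 (SE 0.188, edgeR adjusted p = 2.17e-08) and 4.78 after correction. It was abundant in the polysome too, with a mean of 1017 CPM. Kif20b, a mitotic kinesin, was at 77.4 to 92.5 CPM in monosomes and 1.47 to 2.89 CPM in input (log2 fold change 5.31, 3.56 after correction). Fut9, a fucosyltransferase that makes the Lewis x sugar epitope, had a median of 245 CPM in monosomes and 3.97 CPM in input, with no overlap (5.85). Its transcript has 35.0% GC, and its value after correction was 2.53.

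Kcna3, a voltage-gated potassium channel, went against the trend in composition. Its transcript has 60.3% GC, yet it was at 31.8 to 48.5 CPM (median 38.7) in monosomes and 0.367 to 1.89 CPM (median 1.06) in input. Its log2 fold change was 5.26 (edgeR adjusted p = 1.22e-07), and 5.90 after correction. In the polysome it averaged 9.56 CPM, below the monosome level.

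The zinc finger genes were Zfp758, Zfp942, Zfp51, Zfp984, Zfp62 and Zfp937. Zfp62 was at 139 to 149 CPM in monosomes and 2.23 to 8.57 CPM in input, a log2 fold change of 5.16. Zfp758 was at 11.4 to 14.3 CPM in monosomes and 0.0434 to 0.688 CPM in input (5.74). The log2 fold changes of the 6 genes lay between 5.13 and 5.74, and between 3.35 and 4.11 after correction. C2H2 zinc finger proteins of this kind bind DNA through tandem fingers, each repeat spanning 84 bases with its conserved linker peptide. The linker leaves a repeated stretch in the coding sequence, which the following pieces show. They are the first runs of 3 matches spaced by exactly 84 bases in Zfp51 (chromosome 17) and Zfp937 (chromosome 2), read 5′ to 3′ from the GENCODE M21 transcripts of GRCm38, with the linker motif ACNGGNGANAANCC in capitals.
Zfp51, coding bases 2056 to 2237: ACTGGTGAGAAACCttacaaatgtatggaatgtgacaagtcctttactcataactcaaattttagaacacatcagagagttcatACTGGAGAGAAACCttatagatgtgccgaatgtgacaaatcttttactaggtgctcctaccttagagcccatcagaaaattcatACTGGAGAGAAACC
Zfp937, coding bases 628 to 809: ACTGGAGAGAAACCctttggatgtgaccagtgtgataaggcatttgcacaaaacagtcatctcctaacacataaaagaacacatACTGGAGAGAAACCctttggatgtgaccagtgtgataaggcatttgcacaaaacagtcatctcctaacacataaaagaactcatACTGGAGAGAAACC

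The motif is the linker peptide back-translated with N at each degenerate base. It was searched on the coding strand only, in the complete coding sequences of 14303 tested genes, after the named zinc finger genes were seen, so its counts are a description. Zfp758 and Zfp942 hold 7 matches each, Zfp51 9, Zfp62 10, Zfp984 11 and Zfp937 12. Sequences with 5 or more matches were 200 genes, 1.4% of those searched. Of these, 187 were called higher in the monosome and 6 lower, and 158 (79%) at least 2-fold higher, against 21.1% of all genes and 16.8% of genes with 0 matches. Their median log2 fold change was 2.54, with quartiles of 1.22 and 3.90. After correction the median was 1.47, with 173 higher and 8 lower. The 227 genes with 1 to 4 matches had a median of 0.54, and the 13876 genes with 0 matches had -0.15. In polysome over input the 200 genes had a median of 1.90. A narrower form of the motif, with ACT as its first codon, had been searched first. It marked 90 genes at 5 or more matches, of which 90 were higher and 0 lower, with a median of 3.28 and of 1.88 after correction. Zinc finger genes lie in families of close copies, so reads shared between copies make single-gene values uncertain. Among 26 tested members of a list of genes for KRAB zinc finger repressors, 23 rose and 1 fell, with a median of 1.66 (0.92 after correction). Zfp101 of that list was at 54.0 to 65.7 CPM in monosomes and 1.13 to 4.26 CPM in input (log2 fold change 4.66, 3.40 after correction). The exception was Zkscan14, at 8.54 to 10.3 CPM in monosomes and 9.65 to 15.4 CPM in input (log2 fold change -0.26, edgeR adjusted p = 0.0165). After correction it turned to 0.24 and passed as a rise (edgeR adjusted p = 0.011), so 0 members of the list were called lower there.

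The largest falls were smaller in size than the largest rises. Vtn, the secreted adhesion protein vitronectin, was at 0.908 to 4.18 CPM (median 2.62) in monosomes and 9.70 to 38.5 CPM (median 19.7) in input, a log2 fold change of -3.16 (SE 0.124, edgeR adjusted p = 4.55e-08). Aplp1, a membrane protein of the amyloid precursor family, was at 33.2 to 43.7 CPM in monosomes and 257 to 467 CPM in input (-3.13, -2.45 after correction). Ndn, the imprinted growth suppressor necdin, was at 31.3 to 49.2 CPM in monosomes and 248 to 361 CPM in input (-2.94). Its transcript has 44.5% GC, and its value after correction was -3.48. Ckb, brain creatine kinase, was at 69.8 to 84.9 CPM in monosomes and 456 to 610 CPM in input (-2.81, -2.21 after correction). The other falls of the 10 were Prpf19, Galk1, Ccdc36, Maged1, Aldoc and Cdkn1c, with log2 fold changes from -2.92 to -2.76. Prpf19 encodes a spliceosomal ubiquitin ligase, Galk1 galactokinase, Aldoc a glycolytic aldolase and Cdkn1c the cell cycle inhibitor p57, which was at -2.10 after correction. All 10 were measured in the polysome, with means from 1.81 CPM for Ccdc36 to 3511 CPM for Maged1. Polysome over input, which shares the input libraries, had log2 fold changes of 2.63 for Maged1, 1.39 for Vtn, 1.22 for Prpf19 and 0.96 for Ckb, and of -3.46 for Ccdc36 and -1.08 for Aplp1.

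The extremes of base composition among these genes can be seen in their coding sequences. Shown are the first 90 coding bases of the rise with the lowest and the fall with the highest coding GC content among these 20 genes, with the start codon in capitals. The whole coding sequence of Zfp758 (chromosome 17) has 34.4% GC, and that of Cdkn1c (chromosome 7) has 69.1%. The printed bases have 45.6% and 63.3%. Other genes of the 20 lie between, and some go against the contrast, with 58.1% coding GC for the rise Kcna3 and 49.5% for the fall Ccdc36.
Zfp758: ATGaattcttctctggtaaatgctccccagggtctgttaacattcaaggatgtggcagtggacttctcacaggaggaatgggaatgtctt
Cdkn1c: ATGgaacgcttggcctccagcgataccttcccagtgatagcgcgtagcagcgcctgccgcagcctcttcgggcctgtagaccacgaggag

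**Figure D3:**
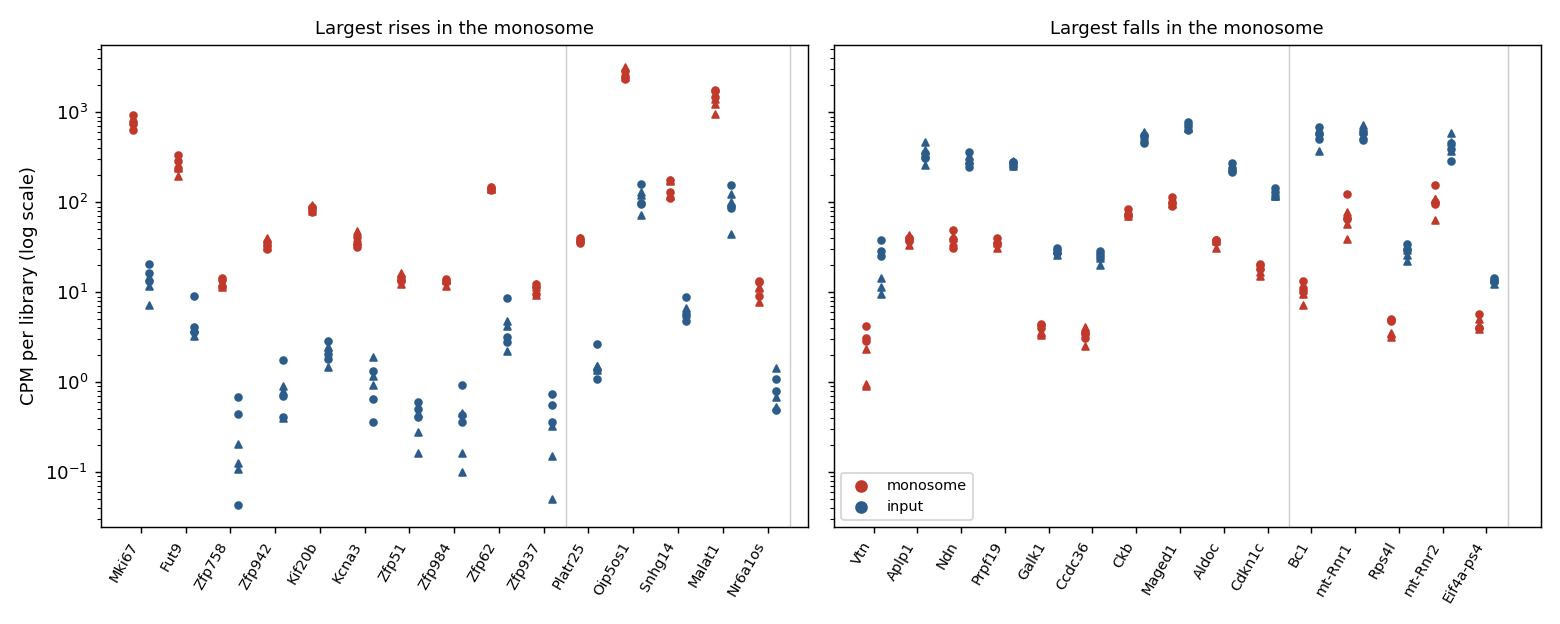
CPM per library on a log scale for the genes with the largest rises (left panel) and falls (right panel), monosome in red to the left of input in blue, with circles for LoF and triangles for T532M controls. In each panel the first 10 genes have a RefSeq protein and the next 5 do not, and the 2 fractions do not overlap for any of the 30 genes, which was a condition of the choice.

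Among RNAs without a RefSeq protein the largest fall of all was in Bc1. Bc1 is a short neuronal RNA made by RNA polymerase III that represses translation initiation and makes no protein. It lies at chr7:144914470-144914637 on the plus strand of GRCm38 and is 168 bases long. The whole RNA is printed because its length and its A-rich middle set it apart from mRNAs, with that stretch of 60 bases (positions 77 to 136) in capitals.
Bc1: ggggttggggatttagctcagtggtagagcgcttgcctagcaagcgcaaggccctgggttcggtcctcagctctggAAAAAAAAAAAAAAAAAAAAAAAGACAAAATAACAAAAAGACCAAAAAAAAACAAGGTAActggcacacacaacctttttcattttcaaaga
Bc1 was at 7.33 to 13.5 CPM (median 10.5) in monosomes and 369 to 693 CPM (median 596) in input. The log2 fold change was -5.76 (SE 0.0891, edgeR adjusted p = 3.88e-09) and -6.87 after correction, with the fractions far apart in all 6 pools. It averaged 3.15 CPM in the polysome.

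The ribosomal RNAs of mitochondria fell too. mt-Rnr1, the 12S rRNA of the small subunit, was at 39 to 124 CPM in monosomes and 494 to 727 CPM in input (log2 fold change -3.15). mt-Rnr2, the 16S rRNA of the large subunit, was at 63.6 to 157 CPM in monosomes and 289 to 588 CPM in input (-2.03). Both gene models are AT-rich, and their values after correction were -5.28 and -4.13. The other falls of this kind were Rps4l (-2.79) and the pseudogene Eif4a-ps4 (-1.60). These 2 resemble mRNAs of the translation machinery, so reads shared with their parent genes make them uncertain.

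Long non-coding RNAs were mostly higher in the monosome. Of 2534 tested, 1551 rose and 209 fell, with a median log2 fold change of 0.83, against 37.6% and 39.4% of all genes. Oip5os1, the conserved RNA known as Cyrano that pairs with the microRNA miR-7, was at 2350 to 3230 CPM (median 2616) in monosomes and 73.3 to 159 CPM (median 110) in input. Its log2 fold change was 4.61 (SE 0.171, edgeR adjusted p = 3.48e-08) and 2.59 after correction, and its mean in the polysome was 179 CPM. Malat1, a nuclear speckle RNA, was at 953 to 1760 CPM in monosomes and 44.2 to 157 CPM in input (3.89, 2.48 after correction), and it averaged 59.6 CPM in the polysome. Snhg14, the long host transcript of small nucleolar RNAs in an imprinted region, was at 113 to 179 CPM in monosomes and 4.81 to 8.99 CPM in input (4.54), and 0.82 after correction. Nr6a1os had 3.71 (2.53 after correction). Platr25, which has no RefSeq protein but is annotated as protein-coding in GENCODE M21, was the remaining rise of the 5, at 4.64 (3.24 after correction).

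The list of nuclear long non-coding RNAs moved as a group, with 17 of 20 tested members higher and 1 lower (median 1.71, 0.81 after correction). Miat was at 485 to 703 CPM in monosomes and 52.1 to 90.4 CPM in input (log2 fold change 3.06), and the imprinted Meg3 at 81.9 to 151 CPM in monosomes and 10.9 to 17.8 CPM in input (2.91, 1.75 after correction). Xist, the RNA that coats the inactive X chromosome, was at 74.0 to 99.1 CPM in monosomes and 7.29 to 19.4 CPM in input (2.69), and 0.29 after correction. The exception was Rian, at 70.0 to 131 CPM in monosomes and 107 to 210 CPM in input (-0.66, -3.47 after correction). Hosts of small nucleolar RNAs, whose spliced RNAs are known targets of nonsense-mediated decay, were higher for 14 of 18 and lower for 1 (median 0.62, 0.60 after correction). Snhg5 was at 65.9 to 81.1 CPM in monosomes and 30.1 to 41.8 CPM in input. Small non-coding RNAs in all were higher for 9 of 42 and lower for 20.

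Genes of the translation machinery were mostly lower in the monosome, by small factors for ribosomal proteins. Of 81 tested genes for cytosolic ribosomal proteins, 73 fell and 4 rose, with a median log2 fold change of -0.54 (-0.34 after correction). Their range of pool medians was -0.80 to -0.29. Rps2 was at 592 to 762 CPM in monosomes and 1310 to 1500 CPM in input (-1.06), and Rpl32 at 671 to 874 CPM in monosomes and 1320 to 1550 CPM in input (-0.89). Rpl7l1, a nucleolar relative of Rpl7, had -1.54. The 4 that rose were Rpl41, Rpl5, Rpl4 and Rpl7, with log2 fold changes from 0.18 to 0.30. Of these Rpl5 and Rpl7 were at -0.36 and -0.14 after correction. Rpl41, whose protein has 24 residues, was at 1384 to 1886 CPM in monosomes and 1219 to 1440 CPM in input.

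Elongation factors and other mRNAs with a 5' terminal oligopyrimidine tract split, with 5 of 20 higher and 9 lower (median -0.22). The shares over all genes were 37.6% and 39.4%. Eef2, which moves the ribosome along the mRNA, was at 6320 to 9019 CPM in monosomes and 4267 to 5870 CPM in input (log2 fold change 0.76, 1.35 after correction). Pabpc1, the poly(A)-binding protein, was at 1970 to 2610 CPM in monosomes and 963 to 1360 CPM in input (0.89). Eef1d, an exchange factor for elongation factor 1A, fell to 74.0 to 91.9 CPM in monosomes, against 184 to 218 CPM in input (-1.29).

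Initiation factors fell for 25 of 35 members and rose for 7 (median -0.79). The list's summed level was nevertheless 11000 to 11500 CPM in monosomes and 9870 to 10700 CPM in input, and its most abundant member rose. Eif4g2, a relative of the scaffold eIF4G, was at 5806 to 6531 CPM in monosomes and 2015 to 2895 CPM in input (log2 fold change 1.30). Eif3a, the largest subunit of eIF3, was at 284 to 340 CPM in monosomes and 27.7 to 59.8 CPM in input (2.78, edgeR adjusted p = 6.28e-08). Eif3b, another core subunit of the same complex, was at 55.9 to 65.6 CPM in monosomes and 266 to 307 CPM in input (-2.25, edgeR adjusted p = 1.68e-08). Both groups of libraries were apart in opposite directions, and the values after correction were 1.96 and -1.67. Aminoacyl-tRNA synthetases, which charge tRNAs, fell for 17 of 20 (median -1.29), with Hars at 23.5 to 28 CPM in monosomes and 108 to 125 CPM in input. The exceptions were Eprs and Qars, with log2 fold changes of 0.71 and 0.46.

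DEAD and DEAH box helicases went both ways, 10 of 30 higher and 15 lower (median -0.26), against 37.6% and 39.4% of all genes. After correction 6 were higher and 20 lower (median -0.51). Ddx3x, the X-linked helicase that aids scanning of structured 5' ends and that the alleles of this study target, was at 339 to 416 CPM (median 358) in monosomes and 63.5 to 189 CPM (median 130) in input. Its log2 fold change was 1.53 (SE 0.19, edgeR adjusted p = 5.97e-05), with no overlap. It was 1.39 in LoF controls, which carry a lox allele and no Cre, and 1.66 in T532M controls, which carry Cre and no lox allele. The difference between the crosses did not pass (edgeR adjusted p = 0.947). After correction the log2 fold change of Ddx3x over both crosses was 0.22 and did not pass (edgeR adjusted p = 0.066). Its mean in the polysome was 2677 CPM. Dhx36, which unwinds G-quadruplexes, was likewise at 1.67, and at 0.01 after correction (edgeR adjusted p = 0.884). Ddx54, a nucleolar helicase, was at 21.9 to 26.7 CPM in monosomes and 86.7 to 113 CPM in input (-1.93).

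mRNAs held back by upstream reading frames showed no common direction, with 8 of 16 higher and 6 lower (median 0.07). Over all genes 37.6% were higher and 39.4% lower. Atf4, the stress transcription factor with the best known such frames, was at 483 to 549 CPM in monosomes and 247 to 307 CPM in input (log2 fold change 0.87, edgeR adjusted p = 4.41e-07), and 1.37 after correction. Uchl1, a neuronal deubiquitinase on that list, fell to 82.0 to 177 CPM in monosomes, against 408 to 558 CPM in input (-2.18). Of 12 genes of polyamine synthesis and its antizymes, 6 rose and 2 fell. Amd1, which makes decarboxylated S-adenosylmethionine and has an upstream frame, was at 107 to 136 CPM in monosomes and 38.5 to 63.2 CPM in input (1.24, 0.31 after correction). Srm, spermidine synthase, had -1.40.

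Mitochondrially encoded mRNAs, which are translated by the organelle's own ribosomes, rose for 6 of 10 tested and fell for 1. mt-Nd5, a subunit of complex I, was at 3600 to 11000 CPM (median 6687) in monosomes and 406 to 695 CPM (median 501) in input. Its log2 fold change was 3.58 (SE 0.154, edgeR adjusted p = 7.05e-08) and 1.87 after correction, and its mean in the polysome was 46.7 CPM. mt-Nd2 and mt-Nd4 had 2.52 and 2.38, and 0.39 and 0.29 after correction, where mt-Nd4 did not pass (edgeR adjusted p = 0.0598). The list's median was 0.89, with pool medians from 0.19 to 1.77, and it was -0.99 after correction, with 2 higher and 6 lower. The direction for these AT-rich RNAs as a group therefore depends on the correction. The member that fell was mt-Nd3, at 0.0442 to 0.214 CPM in monosomes and 0.434 to 1.40 CPM in input (log2 fold change -3.17, -5.93 after correction), below the level set for the ranking of falls.

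Nuclear genes for the same organelle were lower. Subunits of oxidative phosphorylation fell for 46 of 63 and rose for 5 (median -0.79, -0.71 after correction). Atp5b, the catalytic beta subunit of ATP synthase, was at 212 to 264 CPM in monosomes and 1120 to 1340 CPM in input (log2 fold change -2.43). Uqcrc1, a core protein of complex III, was at 26.1 to 33.6 CPM in monosomes and 152 to 193 CPM in input (-2.50, -1.89 after correction). The 5 that rose encode subunits of 63 to 128 residues (median 88), among them Uqcr10 at 127 to 160 CPM in monosomes and 92.9 to 117 CPM in input (0.54). Small subunits are common in this list, with a median of 130 residues over all tested members and 154 for the 46 that fell. Mitochondrial ribosomal proteins fell for 68 of 75 and rose for 5 (median -0.76), with Mrpl39 at 19.7 to 23.1 CPM in monosomes and 58.6 to 63.6 CPM in input. Mrpl42 rose, at 166 to 227 CPM in monosomes and 104 to 123 CPM in input.

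Proteasome subunits, which build the protease that degrades ubiquitin-tagged proteins, gave the lowest list median. Of 31 tested, 30 fell and 0 rose, with a median log2 fold change of -1.93, pool medians from -2.09 to -1.70 and a value of -1.86 after correction. Psmc4, an ATPase of its cap, was at 35.5 to 42.3 CPM in monosomes and 215 to 248 CPM in input (-2.61). Psmb5, a catalytic subunit, was at 13.3 to 16.6 CPM in monosomes and 76.8 to 90.3 CPM in input (-2.50). The summed level was 1730 to 1890 CPM in monosomes and 5960 to 6510 CPM in input.

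Glycolytic enzymes fell for 18 of 19 members (median -1.91, -1.48 after correction). Ldha, lactate dehydrogenase A, was at 67.1 to 84.9 CPM in monosomes and 405 to 509 CPM in input (log2 fold change -2.56), and Eno1, enolase, had -2.68 (-2.03 after correction). The exception was Pfkp, a phosphofructokinase, at 17.3 to 48.5 CPM in monosomes and 3.30 to 5.02 CPM in input (2.55). Cholesterol synthesis fell for 20 of 22 and rose for 2 (median -0.81). Endoplasmic reticulum chaperones fell for 16 of 20 and rose for 4 (median -1.10), with Calr, calreticulin, at 145 to 178 CPM in monosomes and 574 to 739 CPM in input. Short secreted and signalling peptides fell for 21 of 26 and rose for 0 (median -1.46), with Sparc at -2.45 and Igfbp2 at -2.31. Collagens fell for 15 of 20 and rose for 5 (median -1.04), with Col11a1, a fibrillar collagen, the highest at 1.51 (0.77 after correction). Iron-responsive and selenoprotein mRNAs fell for 11 of 19 and rose for 3. Ferritin heavy chain, Fth1, was at 162 to 231 CPM in monosomes and 733 to 1010 CPM in input (-2.20), and the transferrin receptor Tfrc was at 66.8 to 82.1 CPM in monosomes and 11.2 to 33.9 CPM in input (1.79, 0.22 after correction).

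Cell cycle genes went both ways, and those that rose encode longer proteins as a group. Of 37 tested, 27 fell and 10 rose (median -1.13, -1.0 after correction). The 10 that rose had a median of 1292 residues and 43.3% GC, and the 27 that fell 407 residues and 50.4% GC. Beside Mki67 they held Cenpe, a kinetochore kinesin, at 141 to 230 CPM in monosomes and 4.68 to 9.27 CPM in input (log2 fold change 4.72, 3.28 after correction). Aspm, a spindle pole protein whose loss causes microcephaly, was at 130 to 181 CPM in monosomes and 3.92 to 9.54 CPM in input (4.51, 3.09 after correction). Top2a was at 0.99, and at -0.02 after correction. Replication-dependent histone genes, whose mRNAs end in a stem-loop and not in poly(A), fell for 33 of 45 tested and rose for 2 (median -1.04). They passed at low levels, with sums of 118 to 181 CPM in monosomes and 245 to 293 CPM in input. Histone variants with poly(A) fell for 8 of 9 (median -1.22), with the linker histone H1f0 at 276 to 422 CPM in monosomes and 965 to 1120 CPM in input. The exception was the centromeric Cenpa, at 243 to 294 CPM in monosomes and 148 to 190 CPM in input (0.69).

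Large chromatin remodellers and modifiers rose for 17 of 25 and fell for 6 (median 1.06, 0.28 after correction). Nipbl, the cohesin loader, was at 229 to 293 CPM in monosomes and 8.41 to 14.8 CPM in input (log2 fold change 4.55, 2.87 after correction). Setd2, a histone H3 methyltransferase, was at 238 to 324 CPM in monosomes and 16.1 to 26.2 CPM in input (3.79, 2.51 after correction), and Ash1l had 3.75 (2.34 after correction). Kmt2d, a histone H3 lysine 4 methyltransferase, fell to a median of 20.9 CPM in monosomes, against 77.2 CPM in input (-1.82, -2.77 after correction). Smarca4, the ATPase of the BAF complex, fell as well (-1.39).

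Factors that act on RNA also split. Of the stress granule and FMRP family list, 10 of 20 rose and 8 fell (median 0.09, -0.26 after correction), against 37.6% and 39.4% of all genes. Fmr1, the translational repressor lost in fragile X syndrome, was at 60.3 to 73.7 CPM in monosomes and 7.14 to 27.6 CPM in input (log2 fold change 2.18), and 0.18 after correction, which did not pass (edgeR adjusted p = 0.115). Its relative Fxr1 was at 1.95 and kept 1.68 after correction. Ybx1, a cold-shock protein that packs mRNAs, had a median of 448 CPM in monosomes and 2438 CPM in input (-2.46). Nonsense-mediated decay factors rose for 6 of 15 and fell for 9 (median -0.53, -0.12 after correction), against 37.6% and 39.4% of all genes. Among the rises, Upf2 was at 70.2 to 76.7 CPM in monosomes and 4.20 to 8.90 CPM in input (3.50, 2.52 after correction), and the kinase Smg1 had 3.21 (1.48 after correction). Splicing factors with reported poison exons, which are exons that bring an early stop, fell for 12 of 21 and rose for 5, with Clk1 at 2.28 (1.30 after correction) and Snrpb at -2.47. Immediate early genes fell for 16 of 24 and rose for 1 (median -0.58), with Jun at 36 to 45.6 CPM in monosomes and 112 to 141 CPM in input.

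Genes of neurons showed no single direction. Excitatory neuron genes rose for 12 of 23 and fell for 7 (median 0.29), and the median was -0.32 after correction, with 7 higher and 15 lower. Foxp2, a deep-layer transcription factor, was at 59.2 to 86.1 CPM in monosomes and 2.84 to 6.41 CPM in input (log2 fold change 3.97, 2.62 after correction). Nfib was at 2060 to 2460 CPM in monosomes and 301 to 764 CPM in input (2.21, 0.53 after correction). Tbr1, which specifies layer 6 neurons, was at 181 to 240 CPM in monosomes and 346 to 430 CPM in input (-0.91). Neurod6, a defining marker that is not a member of that list, had -0.52 (-1.30 after correction). Axon guidance and synaptic adhesion genes rose for 23 of 41 and fell for 15 (median 0.37), against 37.6% and 39.4% of all genes. Their median was -0.21 after correction, with 13 higher and 22 lower. Dcc, the netrin receptor, was at 208 to 293 CPM in monosomes and 17.2 to 42.8 CPM in input (3.05), and Epha5, an ephrin receptor, had 2.7. Both remained higher after correction, at 1.58 and 2.12.

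Genes of the neuronal cytoskeleton fell for 23 of 29 and rose for 5 (median -1.27, -1.03 after correction). Crmp1, a mediator of semaphorin signals, was at 140 to 194 CPM in monosomes and 676 to 1060 CPM in input (log2 fold change -2.37). Cfl1, the actin-severing cofilin, was at 304 to 707 CPM in monosomes and 1680 to 2000 CPM in input (-2.08). Dcx, the microtubule protein of migrating neurons, rose to 682 to 1025 CPM in monosomes, against 140 to 423 CPM in input (1.80). The thymosins Tmsb4x and Tmsb10, of 43 residues each, rose by 0.66 and 0.61 on the log2 scale.

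Genes of progenitors and of other cell types were also measured. In bulk samples a level cannot tell apart fewer cells of a type and less RNA per cell, while the 2 fractions of a pool came from the same cells. Radial glia genes fell for 14 of 21 and rose for 5 (median -0.42), with Fabp7 at 202 to 266 CPM in monosomes and 505 to 626 CPM in input (log2 fold change -1.27, -2.34 after correction). The long receptor phosphatase Ptprz1 rose, at 157 to 241 CPM in monosomes and 33.3 to 65.3 CPM in input (1.85, 0.63 after correction). Intermediate progenitor genes fell for 11 of 16 and rose for 3 (median -0.48), with Insm1 at -1.43 (-0.82 after correction). Eomes, their defining factor, was at 270 to 309 CPM in monosomes and 277 to 363 CPM in input. Its log2 fold change of -0.15 passed by a small margin (edgeR adjusted p = 0.037) and did not pass under most other settings. After correction it turned to 0.24 and passed as a rise (edgeR adjusted p = 0.00133). Emx1 was at 45.8 to 65.4 CPM in monosomes and 84.5 to 113 CPM in input (-0.81).

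Interneuron and ventral forebrain genes fell for 12 of 22 and rose for 5 (median -0.32). Zeb2 had 1.72, and -0.25 after correction, where it passed as a fall (edgeR adjusted p = 0.00109). Markers of cells other than those of the cortical wall were also present. Microglia genes fell for 12 of 16 and rose for 0, with sums of 38.8 to 69.4 CPM in monosomes and 86.1 to 116 CPM in input. Genes of endothelium, pericytes and meninges fell for 16 of 20, with sums of 77.8 to 148 CPM in monosomes and 167 to 357 CPM in input, and Cldn5, of tight junctions, at -2.25 (-1.66 after correction). Erythroid genes fell for 9 of 15 and rose for 3, with sums of 1210 to 3100 CPM in monosomes and 1420 to 3680 CPM in input. Choroid plexus and hem genes fell for 8 of 15 and rose for 3, with sums of 42.8 to 130 CPM in monosomes and 30.2 to 313 CPM in input. Ttr, the main secreted protein of choroid plexus, was at 0 to 39.6 CPM in monosomes and 0 to 229 CPM in input, with wide spread between pools. The part of these cells in the results for other genes was not tested. Cajal-Retzius genes rose for 3 of 10 and fell for 4 (median -0.20, -0.44 after correction), shares near the 37.6% and 39.4% of all genes, with Reln, the secreted guide of migrating neurons, at 47.1 to 56.1 CPM in monosomes and 76.4 to 113 CPM in input (log2 fold change -0.79, -1.61 after correction).

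**Figure D4:**
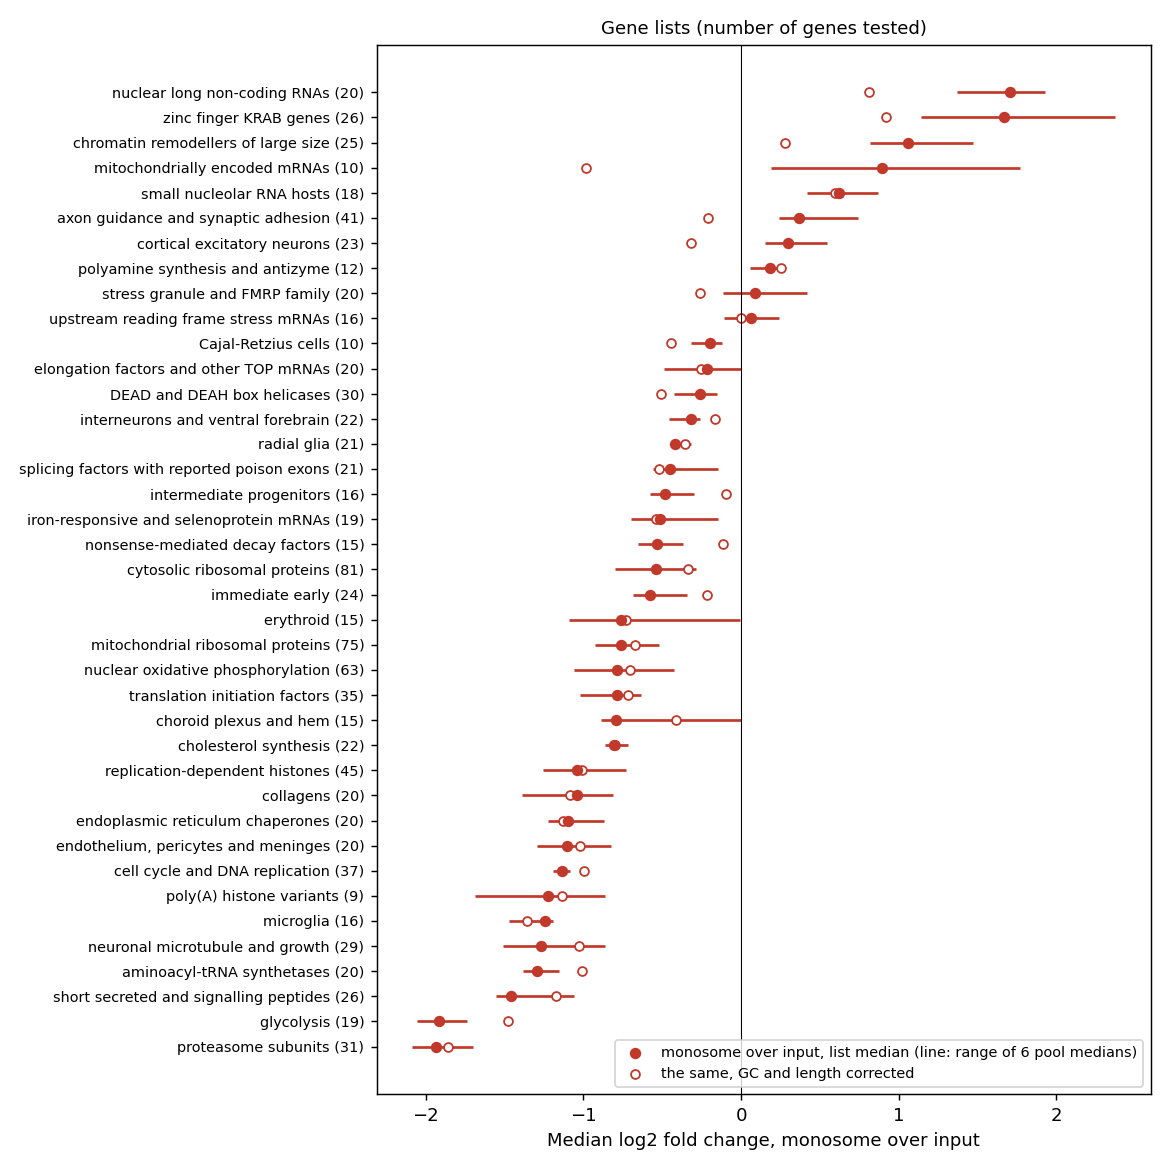
Median log2 fold change of monosome over input for each gene list with 5 or more genes tested (filled red, line giving the range of 6 pool medians), and the median after correction for GC content and length (open). Proteasome subunits and glycolysis lie lowest at -1.93 and -1.91, nuclear long non-coding RNAs and KRAB zinc finger genes highest at 1.71 and 1.66, and mitochondrially encoded mRNAs, excitatory neuron genes, axon guidance genes and stress granule genes change side after correction.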

How the data were processed

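Polysome gradient RNA sequencing was analysed for 6 monosome and 6 input libraries of control cortex. The deposited counts are read pairs per gene, made by the authors with featureCounts 2.0.3, strand setting 2, over whole genes of GENCODE M25 on GRCm38, per the file headers. The submitters' processing notes name STAR 2.7.11a, DESeq2 1.34.0, Subread 2.0.3 and FastQC 0.11.7.

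The counts were filtered (filterByExpr), TMM-scaled and fitted with edgeR 4.0.16 (quasi-likelihood; R 4.3.3), with the pool as a block and a monosome term per cross. Benjamini-Hochberg adjustment ran over all genes tested, with a threshold of 0.05. Polysome values came from the TMM factors and a like fit of the 18 control libraries. The pairing comes from the labels' replicate numbers, as input was taken from the same lysate: deviations of same-numbered libraries correlated at 0.106 to 0.358. Replicates differed by more than sampling noise. Class shares were tested by exact two-sided sign-flip permutation over 64 arrangements.

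The correction for GC content and length, added after the data were seen, fitted in each library a natural spline with 5 degrees of freedom for GC content and another for log2 transcript length to centred log2 CPM (prior count 3), and entered it as an offset in the same edgeR fit. Lengths, GC content, biotypes and sequences came from GENCODE M21 on GRCm38. Named genes were the 10 largest rises and falls with a RefSeq protein and 5 of each without, among called genes with 1 sign in 6 pools, fractions that did not overlap and at least 10 CPM in the higher fraction, and up to 3 called members of each of 40 lists. Some list members that went against their list, and defining markers, were named too. Members and lists were chosen with earlier results of these data known. DESeq2 1.42.0, other scalings, filters and left-out pools were the alternatives. On counts simulated for this comparison (18264 genes), 93% of 100 genes changed 2-fold were recovered, with 8 false calls. The simulation had a fixed dispersion and far fewer changed genes than the 14058 called in the data. It therefore does not give the recovery in these data.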

Additional observations from a re-analysis of the deposited data

Results flagged for a closer look

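In 9 of 195 results tested, 1 of the 6 pools lay far from the others, and about 1 in 20 would by chance (9.75 of 195). Each time that pool was T532M pool 1 or LoF pool 1. These had the highest and the lowest of the 6 pool medians for genes under 40% GC (2.51 and 1.30), and a link to base composition was not tested. In T532M pool 1 the log2 ratio of monosome over input was -3.52 for Aplp1, against -3.16 to -2.95 in the other pools. In the same pool it was -2.88 for Uqcrc1 (others -2.48 to -2.38), -1.62 for Fdft1, of sterol synthesis (others -1.44 to -1.39), and -2.68 for Ybx1 (others -2.48 to -2.36). The median of the large chromatin remodellers was 1.47 there (others 0.82 to 1.06). In LoF pool 1 the ratio of Platr25 was 3.73 (others 4.69 to 5.09). The median of the endothelium, pericyte and meninges list was -0.83 in that pool (others -1.29 to -1.14), and that of 3 small structured non-coding RNAs was -0.66 (others -1.96 to -1.64). The share of genes in no other class differed by 0.0019 percentage points there (others 0.0023 to 0.0024). All 6 pools had the same direction in each of these results.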

How the results depend on the processing

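Of 2185 values of named genes under the alternatives, 2159 kept their direction and side of the threshold. Of the values of counts, shares, bins and lists, 354 stayed within the replicate spread or within 1.5 times, or kept their side of a test. Shares without 1 pool count there as values, since 5 pools cannot give an exact p under 0.0625: the 6 classes that passed kept their direction, and none passed (adjusted p 0.08036 to 0.09375). Scalings moved the median of all genes by 0.07 or less. With at least 5 CPM in the higher fraction, which leaves 11628 genes, 2444 genes were called at least 2-fold higher and 1813 lower, and medians were -0.044 from 400 to under 800 residues and 0.33 from 800 to under 1600. The difference between crosses called 3 genes in DESeq2 and 5 with no low-count filter. Without ribosomal RNA models in the total, the share of other protein-coding genes differed by -3.77 points and passed. The correction for GC content and length turned the sign of the medians of mitochondrially encoded mRNAs (-0.99), cortical neurons (-0.32), axon guidance (-0.21) and stress granules (-0.26, whose pool medians already lay on both sides of 0), and Zeb2 (-0.25) and Eomes (0.24); the cause was not tested. Medians that moved under it were 0.078 and 0.15 for the 2 longest protein classes, -1.01 for aminoacyl-tRNA synthetases, -0.51 for helicases, 0.81 for nuclear long non-coding RNAs, -1.17 for secreted peptides, -1.48 for glycolysis, -0.996 for cell cycle, -0.355 for radial glia, -0.093 for intermediate progenitors, -0.16 for interneurons, -0.44 for Cajal-Retzius cells, -0.41 for choroid plexus, -1.36 for microglia, -0.12 for nonsense-mediated decay, -0.22 for immediate early genes, 0.92 for KRAB zinc finger genes and 0.28 for chromatin remodellers. With total counts, cholesterol synthesis was at -0.74, cell cycle at -1.07 and radial glia at -0.35. Leaving out 1 pool gave -0.40 to -0.32 from 200 to under 400 residues and -0.14 to -0.065 from 400 to under 800. Without the replicate block, 6666 genes were higher and 7035 lower, 0 differed between crosses, and Eomes (-0.15) and Ttr (-1.72) no longer passed, with no other call on a named gene lost. Eomes lost its call in most settings.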
